A study of Zea mays with 7 samples.

Results

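The regions described here are 224 stretches of maize chromosome 2, each 1 kb long, over which small-RNA coverage differed by no more than a factor of 2 between homozygous mop1-1 mutants, heterozygotes and B73. Coverage is the summed depth of aligned reads in a bin, scaled to 1000000 units over the chromosome in each library. A bin was kept when its value lay between 10 and 100 units in all 6 libraries and its highest value was at most 2 times its lowest. These steady bins are 0.0919% of the 243684 bins of the chromosome and 18.8% of the 1194 bins that lay between 10 and 100 units in all 6 libraries. The bins were chosen by their coverage in these 6 libraries, which is therefore described without a test.

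Small RNAs were recovered from immature maize ears by immunoprecipitation of AGO104 and sequenced. Homozygous mop1-1/mop1-1 plants (mm) and heterozygous Mop1-1/mop1-1 plants (Mm) share a mop1-1 stock that carries the paramutagenic B' epiallele of b1, and each genotype has 2 libraries. A further library was labelled ago104, replicate 2, with no allele or zygosity in its labels. B73, the inbred line with the neutral b allele, served as control with 2 libraries. B73 therefore differs from mm and Mm in background and in its b1 allele, and only mm against Mm compares plants of 1 stock. The labels name AGO104-AGO105 as the antibodies for every library, and nothing gives the number of ears behind a library, so the spread between 2 libraries may be partly technical.

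In the RNA-directed DNA methylation pathway of plants, RNA polymerase IV transcribes repeats and other silent sequences, and an RNA-dependent RNA polymerase makes these transcripts double-stranded. MOP1 is that polymerase in maize, the counterpart of Arabidopsis RDR2. A Dicer-like enzyme cuts the product into small interfering RNAs, which Argonaute proteins such as AGO104 carry to matching transcripts. Small RNAs can also come from other sources, such as microRNA genes, transfer RNAs and fragments of messenger RNA, which do not need MOP1.

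Other bins were set beside the steady bins in 3 sets. The 3002 fallen bins met the same level and ratio limits in the 4 Mm and B73 libraries, while both mm libraries were under 0.5 times the lowest of those 4. The 970 level-matched bins also lay between 10 and 100 units in all 6 libraries, but their ratio was above 2. The third set is all 241613 bins with coverage in at least 1 of the 6 libraries. Of 3828 bins that were steady in the 4 Mm and B73 libraries, 224 (5.85%) were steady in all 6, 3002 (78.4%) were fallen and 602 (15.7%) were neither. Over these 3828 bins the mean of mm was a median 0.122 of the mean of the other 4 libraries.

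Which bins count as steady depended on the scaling. With libraries scaled by the median ratio over bins covered in all 6 libraries, 150 bins were steady, and 75 of them were shared, which is 33.5% of the 224 bins and 50% of the 150. With scaling to the coverage outside the top 1% of bins, 185 were steady and 56 were shared, or 25% of the 224 and 30.3% of the 185. The median-ratio scaling multiplied the libraries by 1.07 and 1.27 in mm, 0.716 and 0.802 in Mm, 0.795 in the ago104 library, and 0.945 and 0.980 in B73. The members are therefore steady as a share of each library's coverage, and fewer cells that make these small RNAs cannot be told apart from less RNA per cell.

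Depth limits the precision of single bins. Chromosome 2 held 936656 and 1742053 alignments in mm, 1555520 and 1417599 in Mm, 20104173 in the ago104 library, and 2781590 and 4431623 in B73. A steady bin held a median of 20 and 39 alignments in mm, 35 and 29 in Mm, 346.5 in the ago104 library, and 54.5 and 87 in B73. Alignments were counted in the bin where they start, so reads that enter from a neighbouring bin are missed. The fewest in a member were 6 in mm replicate 1 and 3 in mm replicate 2, in the bin at 98717001. That bin had 43.5 and 38.1 units in these libraries, where 1 alignment of 17 bases gives 1.03 and 0.553 units. Its counts therefore do not measure what its coverage rests on. Reads copied by PCR are also not independent molecules, so alignment counts give no full measure of precision.

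Median coverage in the steady bins was 20.99 and 21.9 units in mm, 22.1 and 20.2 in Mm, 17.95 in the ago104 library, and 20.2 and 19.6 in B73. In the fallen bins it was 2.30 and 1.69 units in mm, 22.4 and 21.3 in Mm, 20.0 in the ago104 library, and 18.9 and 15.9 in B73. The steady bins thus sat at nearly the same level as the fallen bins in Mm and B73 and apart from them in mm, as the rule required. As a share of all coverage on the chromosome, the steady bins took 0.600% and 0.635% in mm, 0.618% and 0.562% in Mm, 0.487% in the ago104 library, and 0.548% in each B73 library.

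**Figure D1:**
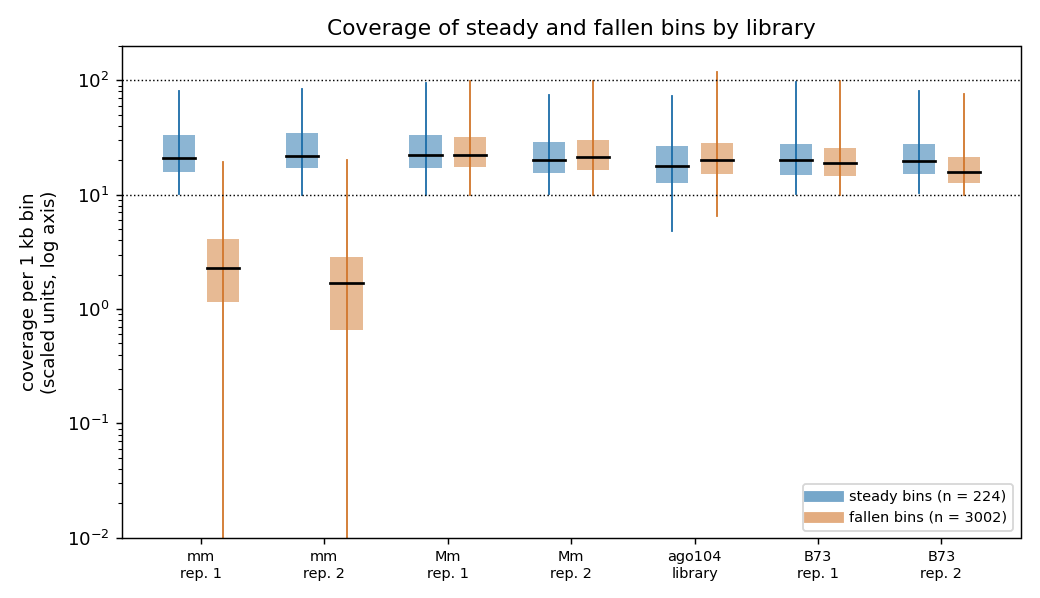
Coverage per 1 kb bin (scaled units, log axis) in each of the 7 libraries for the 224 steady and the 3002 fallen bins. Boxes run between the quartiles of the bins, black bars are medians, thin lines run from the lowest to the highest bin (bins at 0 are drawn at the bottom edge) and dotted lines mark the limits of 10 and 100 units. Steady bins stay between those limits in the 6 libraries of the rule, while fallen bins in mm have medians of 2.30 and 1.69 units.

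The ratio of highest to lowest library ran from 1.13 to 1.998 with a median of 1.75, and 33 of the 224 bins were at or under 1.5. The mean over the 6 libraries ran from 11.9 to 72.7 units with a median of 20.5, with 104 members under 20 and 16 over 50. No genotype was always on one side. The highest library of a member was mm replicate 1 in 36 bins, mm replicate 2 in 61, Mm replicate 1 in 54, Mm replicate 2 in 24, B73 replicate 1 in 24 and B73 replicate 2 in 25. The lowest was an mm library in 31 and 23 bins, an Mm library in 32 and 41, and a B73 library in 45 and 52.

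The limits pass through a continuum. The member nearest to the ratio limit, at 111806001 to 111807000, had 56.6 and 58.6 units in mm, 44.1 and 29.3 in Mm, 19.4 in the ago104 library, and 39.8 and 35.8 in B73. It lies in LOC541711, also listed as zpu1, a starch debranching enzyme of the pullulanase type. The nearest bin outside, at 94827001 to 94828000, had 12.8 and 22.6 units in mm, 11.3 and 13.01 in Mm, 9.97 in the ago104 library, and 13.9 and 17.9 in B73. At the lower level, the member at 135938001 had 10.02 units in its lowest library and the bin at 43565001, just outside, had 9.98 units, both in Mm replicate 1. Under the same ratio limit, 2509 more bins were left out because a library was under 10 units and 21 because a library was over 100.

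Leaving a library out of the rule enlarged the set by different amounts. There were 322 bins without mm replicate 1, 343 without mm replicate 2, 315 and 294 without the Mm replicates, and 473 and 369 without the B73 replicates. B73 replicate 1 thus removed the most bins, and all 224 members are part of each of these sets.

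The steadiest member, at 16729001 to 16730000, had 14.2 and 13.6 units in mm, 14.4 and 15.0 in Mm, 6.03 in the ago104 library, and 13.3 and 13.9 in B73. The 6 values of the rule spanned a factor of 1.13, and the ago104 library lay under all of them. The bin lies outside annotated genes, 9.03 kb from LOC100282239, and its neighbour at 16730001 to 16731000 was also a member, with 44.7 and 47.2 units in mm, 44.9 and 45.6 in Mm, 16.9 in the ago104 library, and 57.9 and 53.4 in B73.

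Along the steadiest bin, reads covered 153 and 227 bases in mm, 289 and 240 in Mm, 676 in the ago104 library, and 313 and 496 in B73. Stacks stood at scattered positions in every library, with a stack at the right edge of the bin in each. The fallen bin whose Mm and B73 mean was nearest to it, at 73031001 to 73032000, had no coverage in either mm library. It had 16.3 and 18.7 units in Mm, 17.9 in the ago104 library, and 10.1 and 11.5 in B73.

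**Figure D2:**
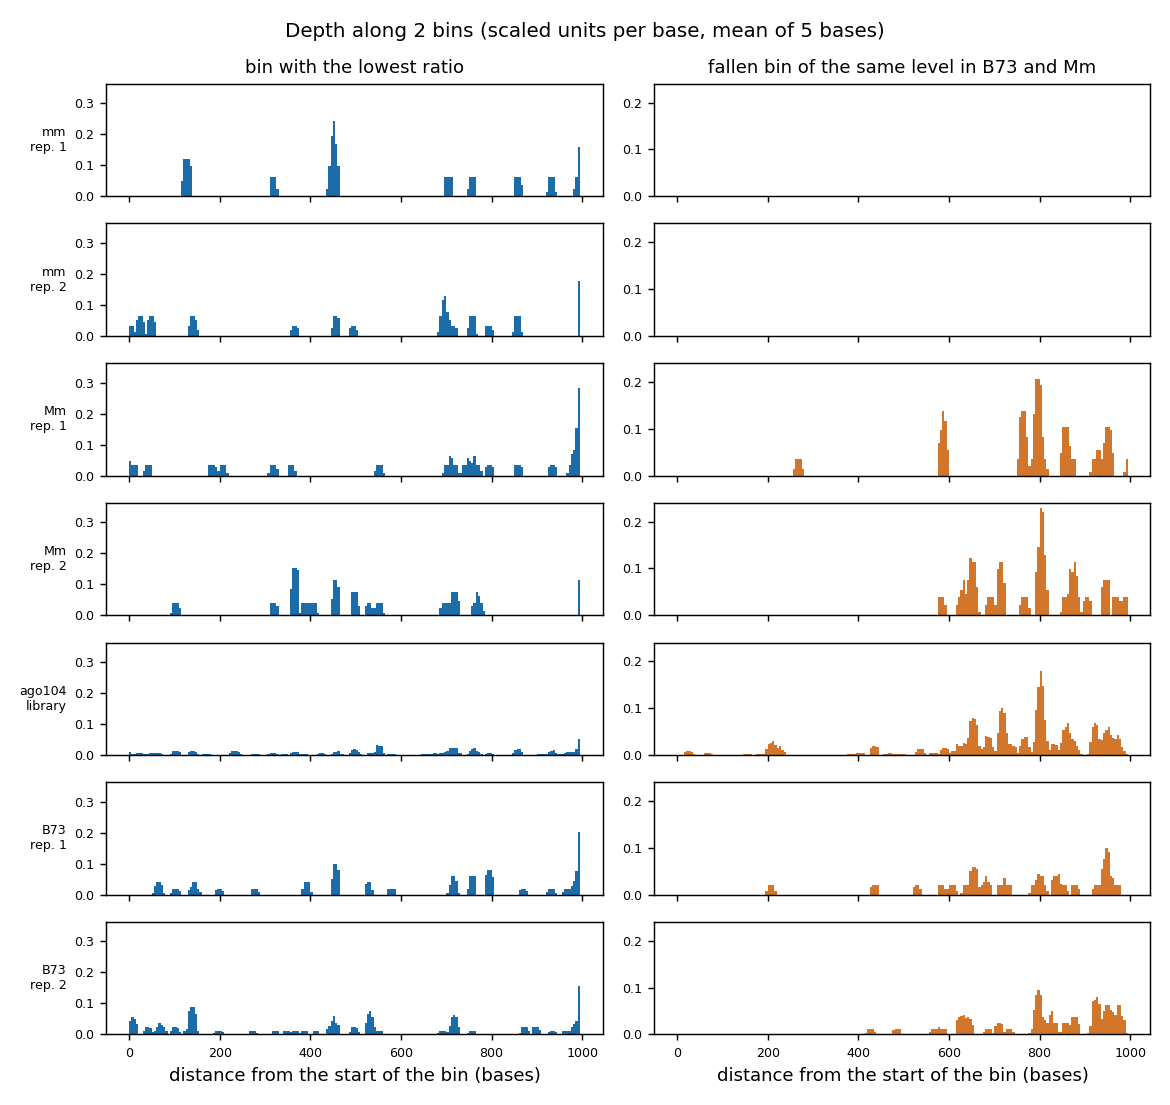
Depth in scaled units per base (mean of 5 bases) along the steadiest bin (left) and the fallen bin of nearest level in Mm and B73 (right), by distance in bases from the start of the bin, 1 row per library and 1 vertical scale per column. The steady bin has stacks in all 7 libraries, including 153 and 227 covered bases in mm, and the fallen bin has none in either mm library.

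Of the next steadiest bins, the one at 24580001 to 24581000 had 26.4 and 26.3 units in mm, 23.4 and 24.5 in Mm, 21.01 in the ago104 library, and 23.5 and 22.8 in B73. Its nearest gene, LOC111591032, is annotated as a small nucleolar RNA (snoRNA), a class that guides chemical modification of ribosomal RNA, and lies 0.958 kb away. The same coverage was laid down differently here, with 56 and 52 covered bases in mm, 250 and 193 in Mm, 754 in the ago104 library, and 236 and 197 in B73. The other 3 of the 5 steadiest bins, at 41493001, 209659001 and 203205001, averaged 37.4, 55.8 and 38.0 units, and none overlaps an annotated gene.

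Members with the most coverage lay mostly in genes. The bin at 59344001 to 59345000 in the protein-coding gene LOC103646503 had 58.3 and 61.2 units in mm, 78.4 and 66.7 in Mm, 39.3 in the ago104 library, and 96.4 and 75.3 in B73. The bin at 225230001 to 225231000 in LOC100194354 had 78.1 and 78.1 units in mm, 90.4 and 70.4 in Mm, 50.7 in the ago104 library, and 60.7 and 56.0 in B73. Next came bins in LOC100281655 (mean 70.7 units), in LOC100274763 (70.7) and outside genes at 21678001 (70.6). In all 5 the ago104 library was at 0.45 to 0.70 of the mean of the 6, and below each of them.

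The length of the aligned stretches differed between mm and Mm. An isolated stretch is an interval of constant depth with uncovered bases on both sides, so that its length is the length of the reads in it as aligned. In the steady bins, 17 bases was the commonest length in mm and carried 48.5 ± 0.195% of the isolated depth, against 28.6 ± 2.41% in Mm, 21.7% in the ago104 library and 31.8 ± 1.93% in B73 (SD, n = 2 for mm, Mm and B73). Stretches of 19 bases carried 7.81 ± 1.09% in mm, 27.9 ± 0.961% in Mm, 35.3% in the ago104 library and 27.01 ± 3.51% in B73. Both differences between mm and Mm were larger than the spread between the 2 libraries of a genotype. They were not particular to the steady bins. Over all bins with coverage, 17 bases carried 33.4 ± 0.902% in mm and 14.9 ± 0.170% in Mm, a difference of 18.5 points. There 19 bases carried 12.6 ± 2.41% in mm and 40.8 ± 0.0294% in Mm, a difference of -28.2 points. In the steady bins the other lengths had no single pattern. Stretches of 18 bases carried 15.7 ± 1.81% in mm and 18.7 ± 1.39% in Mm, and did not follow those of 17. Stretches of 21 bases carried 0.981 ± 0.316% in mm and 0.697 ± 0.0898% in Mm, and did not follow those of 20. Stretches of 16 bases followed those of 17, with 24.1 ± 1.29% in mm against 16.3 ± 2.11% in Mm in the steady bins. Stretches of 20 bases followed those of 19, with 2.93 ± 0.449% in mm against 7.76 ± 0.221% in Mm.

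In each library the share of 17 bases was 48.4% and 48.7% in mm, 26.9% and 30.3% in Mm, 21.7% in the ago104 library, and 33.2% and 30.4% in B73. The mm libraries did not overlap with any other library. With the scaling outside the top 1% of bins the share was 29.7 ± 3.92% in mm and 24.2 ± 4.06% in B73 (SD, n = 2 each), a difference close to the spread between replicates. For 19 bases the shares were 7.04% and 8.59% in mm, 27.2% and 28.6% in Mm, 35.3% in the ago104 library, and 24.5% and 29.5% in B73. Again the mm libraries stood apart, while Mm and B73 overlapped.

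The fallen bins had another length profile in every library. There, 17 bases carried 23.9 ± 4.87% in mm, 10.1 ± 0.598% in Mm, 14.3% in the ago104 library and 11.6 ± 0.826% in B73, and 19 bases carried 25.3 ± 9.91% in mm, 48.9 ± 0.934% in Mm, 41.2% in the ago104 library and 46.5 ± 0.717% in B73. The share of 17 bases was higher in the steady than in the fallen bins in 6 of the 6 libraries, by 16.4 to 27.9 percentage points, and in the ago104 library by 7.42 points. The share of 19 bases was lower in the steady bins in 6 of the 6 libraries, by differences of -25.3 to -9.73 points. In mm the fallen bins were thinly covered, and their share of 19 bases was 32.3% in replicate 1 and 18.3% in replicate 2.

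**Figure D3:**
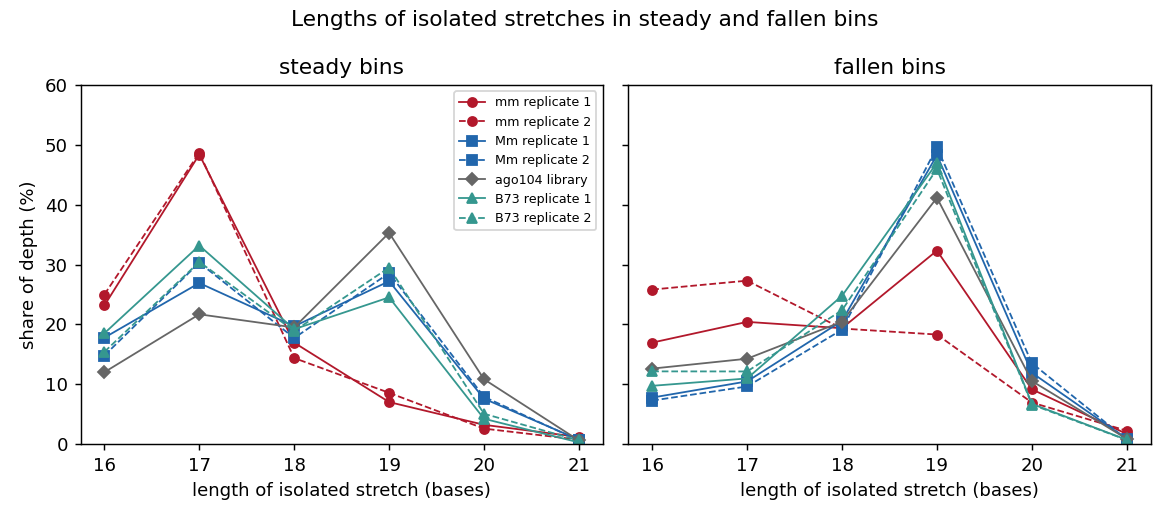
Share of isolated depth (%) by length of the isolated stretch (16 to 21 bases) in the steady bins (left) and the fallen bins (right), 1 line per library, with replicate 2 dashed. In steady bins both mm libraries peak at 17 bases, at 48.4% and 48.7%, and Mm and B73 show peaks at both 17 and 19 bases, while in fallen bins Mm, B73 and the ago104 library peak at 19 bases.

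Against the level-matched bins the 17-base share was also higher in 6 of the 6 libraries, by 6.19 to 24.2 points. The 19-base share weighted by depth was higher in the steady bins in 3 libraries and lower in 3. With each stretch counted once it was lower in the steady bins in 6 of the 6 libraries, by differences of -9.40 to -2.05 points. The level-matched bins had 27.3 ± 3.91% of their isolated depth at 17 bases in mm and 44.1 ± 5.68% at 16. Against all bins with coverage the 17-base share was higher in the steady bins in 6 of the 6 libraries, by 11.9 to 17.2 points.

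The mean 17-base share of each genotype was higher in steady than in fallen bins under each scaling, but the size of the difference depended on it. With the scaling outside the top 1%, mm had 29.7 ± 3.92% in steady and 22.8 ± 4.96% in fallen bins, a difference close to the spread between replicates. On the same scaling Mm had 20.8 ± 2.62% and 9.61 ± 0.621%, and B73 24.2 ± 4.06% and 11.5 ± 0.527%. The 55 bins that were steady under all 3 scalings had 35.7 ± 7.03% at 17 bases in mm, 23.5 ± 4.98% in Mm and 26.4 ± 0.928% in B73 (SD, n = 2 each). The 2225 bins that were fallen under all 3 had 22.9 ± 5.30% in mm, 9.97 ± 0.477% in Mm and 11.4 ± 0.844% in B73. At 17 bases mm differed from Mm by 8.31 points with the median-ratio scaling and 8.83 points with the scaling outside the top 1%, against 19.9 points with the scaling used here. The difference at 19 bases kept its size, at -20.1 points here and -21.4 and -22.3 points with the other 2.

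Isolated stretches held 18.99% and 10.6% of the coverage of the steady bins in mm, 13.2% and 15.5% in Mm, 1.249% in the ago104 library, and 8.55% and 5.14% in B73. Lengths were therefore also taken from all alignments, by pairing the rises and falls of depth in order. On that measure the steady bins held 2828 ± 23.9 alignments of 17 bases per 1000000 in mm, 1863 ± 133 in Mm and 2013 ± 17.7 in B73, which made mm 1.52 times Mm. Of 19 bases they held 488 ± 10.98 per 1000000 in mm, 1249 ± 102 in Mm and 865 ± 76.9 in B73, which made mm 0.391 times Mm. As a share of each library, the steady bins in mm thus held more alignments of 17 bases and fewer of 19 than in Mm. The ratio of mm to Mm was 1.69 at 16 bases, 0.891 at 18, 0.402 at 20 and 1.22 at 21. In the level-matched bins that ratio was 1.96 at 17 bases and 0.523 at 19, so neither direction was particular to the steady bins. The rule kept the scaled total of each member within a factor of 2. More alignments at 17 bases and fewer at 19 are therefore not independent of each other. In the fallen bins 19-base alignments were at 1831 ± 1096 per 1000000 in mm, 32604 ± 1380 in Mm and 22661 ± 4403 in B73, a ratio of mm to Mm of 0.0562.

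Bin by bin, 17 bases was the commonest length in 155 of the 224 members (69.2%) in mm, 113 (50.4%) in Mm, 79 (35.3%) in the ago104 library and 140 (62.5%) in B73, with the libraries of a genotype summed. In mm it was also the commonest length in 427 of the 970 level-matched bins (44.0%). Among the 2938 fallen bins with alignments in mm it was commonest in 834 (28.4%). In Mm 76 members (33.9%) had 19 bases as the commonest length, against 10 members in mm. The commonest length was 19 bases in 97.3% of the fallen bins in Mm and in 96.7% in B73. The level-matched bins in Mm divided between these lengths as well, with 17 bases commonest in 314 (32.4%) and 19 bases in 277 (28.6%). Lengths of 16 to 21 bases were counted, which held 91.7% of the paired alignments in the ago104 library and 96.3% to 99.3% in the others. Most are shorter than the classes of 21 to 25 bases named in other tables of the series. The sources used here do not say why, so they cannot be read as the lengths of the small RNAs themselves.

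Covered bases give a second view of how a level was held. A steady bin had a median of 151 and 205 covered bases in mm, 260.5 and 238 in Mm, 639.5 in the ago104 library, and 313 and 384 in B73. Group means were 178 ± 38.2 in mm and 249 ± 15.9 in Mm, a ratio of 0.714, and 349 ± 50.2 in B73 (SD, n = 2 each). Depth also differed between the libraries, with the alignment totals given above, and its part in this ratio was not tested. In the fallen bins the medians were 37 ± 1.41 in mm and 243.5 ± 12.0 in Mm, a ratio of 0.152, and in the level-matched bins 63.5 ± 10.6 in mm and 165 ± 11.3 in Mm, a ratio of 0.385.

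In 120 members (53.6%) both mm libraries covered fewer bases than both Mm libraries, and in 2 members both covered more. Over the 1194 bins between 10 and 100 units the share with fewer in mm was 62.1%, and the steady bins are part of it, so nothing is read from this count. The ratio of 0.714 depended on which bins were called steady, since it was 0.332 for the 150 bins of the median-ratio scaling and 0.322 for the 185 bins of the scaling outside the top 1%. It was also relative to raw bases, and when covered bases were scaled to sum to 1000000 in each library, a choice made after seeing the data, mm was 1.89 times Mm.

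Coverage in the steady bins was more concentrated in mm than in Mm. The fullest block, a run of covered bases with no gap, held a median of 46.3% and 49.6% of a bin's coverage in mm, 34.9% and 33.8% in Mm, 41.4% in the ago104 library, and 35.2% and 38.0% in B73. The block held over 50% of the coverage in 105 and 109 of the 224 members in mm, 57 and 57 in Mm, 82 in the ago104 library, and 71 and 77 in B73. The level-matched bins were far more concentrated, with the fullest block at 90.6 ± 0.457% in mm, 59.2 ± 3.81% in Mm and 73.5 ± 7.36% in B73.

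**Figure D4:**
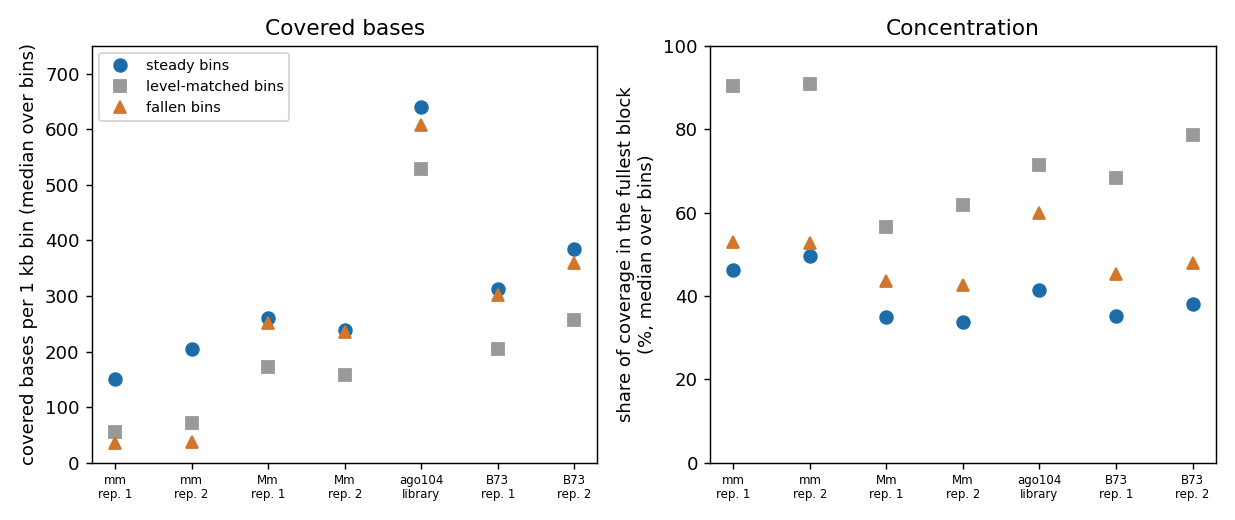
Covered bases per 1 kb bin (left, median over bins) and share of a bin's coverage in its fullest block (right, %, median over bins) in the 7 libraries for steady, level-matched and fallen bins. Steady bins keep 151 and 205 covered bases in mm where fallen bins keep 36 and 38, and their fullest block holds less of the coverage than in level-matched bins in every library.

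The bases covered in the steady bins were compared between libraries. Of the bases covered in an mm library, 57.4% to 66.2% were also covered in an Mm library, against 50.2% and 68.9% between the mm libraries and 56.1% and 61.4% between the Mm libraries. Both shares between the mm libraries come from the same 24532 bases over different totals, so their range is not a spread between replicates. The mm libraries covered 15.9% and 21.8% of all bases of the steady bins, and the Mm libraries 27.4% and 25.1%. Sharing can rise with the bases that the second library covers. These values therefore cannot tell whether mm shared as much with Mm as with its replicate. In the other direction, 38.4% to 49.9% of the bases covered in an Mm library were also covered in an mm library. In the level-matched bins 54.0% to 65.4% of mm bases were covered in an Mm library, which is about the same as in the steady bins. The fullest blocks overlapped in 53.1% to 58.9% of members between mm and Mm, in 70.5% between the mm libraries, in 63.4% between the Mm libraries and in 67.0% between the B73 libraries. In the fallen bins only 18.6% and 21.7% of mm bases were shared between the mm libraries, where few reads remained, and 48.6% to 62.1% with an Mm library.

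Steady bins were found along the whole chromosome, the first starting at 1803001 and the last ending at 243138000. In windows of 20 Mb they numbered 15, 24, 23, 15, 10, 15, 14, 13, 21, 12, 27 and 32 up to 240 Mb, with 3 beyond. The first 20 Mb held 6.70% of the steady bins, against 12.5% of the level-matched and 12.9% of the fallen bins, and the window from 220 to 240 Mb held 14.3%, against 10.9% and 11.7%. Over all bins with coverage, each full window held 8.05% to 8.25%. The lowest share of steady bins, 4.46%, was in the window from 80 to 100 Mb, where the fallen bins had 4.03%.

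A member had a median distance of 293 kb to the next, and 42 of the 224 (18.75%) had a member directly beside them, against 81 of 970 level-matched bins (8.35%) and 462 of 3002 fallen bins (15.4%) beside one of their own set. The fallen bins lay closer together, at a median of 12 kb. A fallen bin lay directly beside 12 steady bins (5.36%) and beside 7.32% of the level-matched bins. Neighbouring members can belong to 1 transcript or repeat and are not independent of each other.

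The longest run was 4 bins, from 205080001 to 205084000, all within the protein-coding gene LOC100275447. They averaged 50.4 and 52.0 units in mm, 46.5 and 34.8 in Mm, 26.8 in the ago104 library, and 35.4 and 37.4 in B73. The fullest, at 205081001, had 69.2 and 68.0 units in mm, 64.4 and 46.1 in Mm, 34.3 in the ago104 library, and 47.3 and 49.9 in B73, and 17 bases was its commonest length in all 4 groups. Runs of 3 lay at 59406001 to 59409000 and at 73407001 to 73410000.

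Counting gaps of up to 25 kb, 6 clusters of 3 or more bins held 25 members. The cluster from 225229001 to 225262000 had 5 members, all in LOC100194354 and all with 17 bases as the commonest length in mm. The cluster from 176556001 to 176591000 had 6 members, of which 3 overlap tRNA genes and only 1 had 17 bases as the commonest length in mm. There the ago104 library ran from 0.766 to 1.86 of the mean of the 6, against 0.701 to 0.921 in the cluster of LOC100194354.

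Annotated genes overlapped 80 of the 224 steady bins (35.7%, exact 95% interval 29.4% to 42.4%), against 32.0% of the level-matched bins, 23.6% of the fallen bins and 12.6% of all bins with coverage. Protein-coding genes accounted for 69 (30.8%), against 25.7%, 19.6% and 10.1% of those sets. With 2 kb added on both sides of a gene the shares were 49.6% of the steady, 45.1% of the level-matched, 50.6% of the fallen and 18.8% of all bins. The difference between steady and fallen bins was not tested, and with a ratio limit of 1.5 the share of steady bins in genes was 24.2%, close to that of the fallen bins. That share rests on only 33 bins and is imprecise. The intervals treat bins as independent, which neighbours are not.

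The 69 bins lay in 51 protein-coding genes, of which 14 held 2 or more members and 3 held 4 or more. The 3 were LOC100194354 with 5 members and LOC100275447 and LOC100277287 with 4 each. Bins outside genes were at a median of 14.2 kb from the nearest one. No member overlapped an annotated long noncoding RNA gene, and 0 of 224 allows a share of up to 1.63% by the exact interval, against 1.55% of level-matched and 1.53% of fallen bins. Deposited positions carry no annotation, and genes were placed with an offset per chromosome arm fitted to read stacks over tRNA genes, so gene borders are approximate.

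Genes for small structural RNAs overlapped 8 steady bins (3.57%), against 3.20% of level-matched, 0.266% of fallen and 0.138% of all bins. Transfer RNA genes, which encode the adaptors of translation, lay in 6 of the 8 and small nuclear RNA genes (snRNA), whose products act in splicing, in 2. Since the offset was fitted on tRNA genes, their overlap is not independent of it. The bin at 176573001 with TRNAR-ACG, an arginine tRNA gene, had 56.3 and 56.5 units in mm, 38.5 and 35.9 in Mm, 33.5 in the ago104 library, and 36.9 and 38.3 in B73. Here both mm libraries were above the other libraries. The bin at 14011001 with TRNAM-CAU, a methionine tRNA gene, had 16.2 and 20.1 units in mm, 26.4 and 24.9 in Mm, 21.9 in the ago104 library, and 20.1 and 15.7 in B73, with mm and B73 below Mm. The snRNA bin at 216362001 with LOC111590950 had 32.5 and 34.6 units in mm, 19.6 and 24.2 in Mm, 13.7 in the ago104 library, and 24.6 and 20.9 in B73.

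The ago104 library was not used by the rule and had no replicate, so its values are given without a test. Its coverage in the steady bins was a median 0.831 of the mean of the 6 libraries, against 0.865 in the level-matched bins and 1.44 in the fallen bins, where mm pulls the mean down. Against the mean of the 4 Mm and B73 libraries it was 0.846 in the steady and 1.01 in the fallen bins. It lay within a factor of 2 of the mean of the 6 in 193 steady bins (86.2%), and in 84.7% of the 1194 bins between 10 and 100 units, so the steady bins were near the background. It was under 0.5 times the mean in 30 members, against a background of 13.2%, and over 2 times in 1, against 2.09%.

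It was below all 6 libraries in 97 members (43.3%) and above all 6 in 29 (12.9%). The background shares over the 1194 bins were 19.4% and 7.29%. The 6 values of a steady bin are close together by the rule, which leaves more room outside them than in other bins. With the ago104 library added as a seventh, 137 of the 224 bins still met the rule, and 26 fell under 10 units in it.

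The position of the ago104 library differed with the commonest length in mm. In the 155 members where 17 bases was commonest its ratio to the mean of the 6 had a median of 0.734, and 29 of them were under 0.5. In the 69 other members the median was 1.02, and 1 was under 0.5. These 69 also had fewer covered bases in mm (median 69 against 240) and overlapped genes less often (23.2% against 41.3%). The split used mm reads, was chosen after the values were seen, and no test was made over bins. The ago104 ratio was not split by length in the level-matched bins. Whether this pattern is particular to the steady bins is therefore not known.

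**Figure D5:**
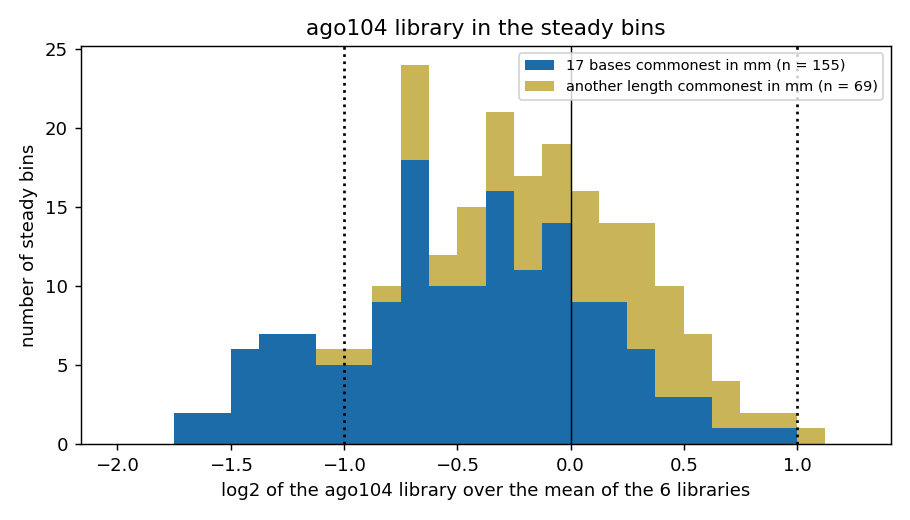
Number of steady bins by the log2 ratio of the ago104 library to the mean of the 6 libraries, stacked by whether 17 bases was the commonest length in mm (155 bins) or not (69 bins). Dotted lines mark a factor of 2, and the bins under the lower line are nearly all from the 17-base group (29 of 30).

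The member highest in the ago104 library relative to the 6, at 67977001, had 33.4 units in it, against 22.99 and 11.9 in mm, 15.1 and 12.6 in Mm, and 12.5 and 19.02 in B73. Next came bins at 176590001, 1.86 times the mean and beside the tRNA gene TRNAL-CAA, and at 242802001, 1.85 times. The lowest, at 155761001, had 8.14 units in the ago104 library, against 29.1 and 33.4 in mm, 18.8 and 17.3 in Mm, and 26.9 and 27.9 in B73. The bins at 48828001 and 16730001 followed, at 0.32 and 0.35 of the mean. All 3 of the lowest lie outside annotated genes.

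No b1 gene is named in the annotation used, and the place of its repeats was taken from an earlier look at repeating coverage in these files. The member nearest to that place lay at 19849001 to 19850000 and had 20.5 and 18.6 units in mm, 19.4 and 13.6 in Mm, 9.82 in the ago104 library, and 10.4 and 11.4 in B73. The mm and Mm libraries were above both B73 libraries here, and the ago104 library was below all 6. Among all 224 members the B73 replicates were lowest in 45 and 52, and the ago104 library was below all 6 in 97 (43.3%). The bin was chosen after its values were seen, so nothing about b1 is read from it. The paired alignments of that bin in mm were 29 of 17 bases and 0 of 19, against 24 and 7 in Mm, 37 and 33 in the ago104 library, and 40 and 11 in B73.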

How the data were processed

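Small RNAs from immature ears were sequenced after immunoprecipitation of AGO104. According to the methods of the study and the submitters' processing notes, the authors trimmed the reads, aligned them to B73 version 5 with Bowtie 1.2.2 (up to 2 mismatches, at most 2 placements of a read reported) and computed coverage with bedtools. The deposited values are signal: read depth along intervals of chromosome 2, not scaled to library size. A read that fits several places can count at 2 of them, so near-identical copies share signal. No strand is given, and no count of uniquely placed reads was used.

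Depth was multiplied by interval length, summed in bins of 1000 bases from the start of the chromosome and scaled to 1000000 per library (Python 3.11.15, numpy 2.4.6, pandas 2.3.3, scipy 1.17.1). Steady bins, the comparison sets and the named bins (the 5 steadiest, the 5 fullest, those nearest the limits, the longest runs, those with structural RNA genes, and the 3 highest and 3 lowest in the ago104 library) followed set rules. The bin nearest to the b1 repeats, the bins of the profile plot, the clusters and the split by commonest length were chosen after their values were seen. All members and lists were chosen with earlier results of these data known. Isolated stretches of 16 to 21 bases were weighted by depth. RefSeq genes (assembly Zm-B73-REFERENCE-NAM-5.0) were placed with an offset of -2 bases before the place taken as the b1 repeats, which was set by hand, and 7855 bases beyond it, the offsets at which 17 and 136 tRNA genes had the highest depth. The procedure was checked on simulated reads that crossed no bin border and had the same length at a shared start. Reads across borders and mixed lengths at a start were therefore not covered by that check. No test was made, since the rule used all replicated libraries. The 10 length-class tables were not used here, nor is any sequence printed. Alternatives to the rule, the scaling, the lengths and the annotation were tried, and each library was left out in turn.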

Additional observations from a re-analysis of the deposited data

How the results depend on the processing

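The number of steady bins was 33 with a ratio limit of 1.5, 635 with a limit of 3, 557 with levels of 5 to 200 units and 992 with covered bases as the value, and 294 to 473 when a library was left out of the rule. Without B73 replicate 1 it was 473, without B73 replicate 2 369 and without mm replicate 2 343.

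The difference between mm and Mm at 17 bases was 13.01 points with a ratio limit of 3, 14.9 with bins shifted by 500 bases, 8.83 with scaling outside the top 1%, 8.31 with median-ratio scaling, 14.2 with covered bases as the value and 14.2 with all paired alignments, and 14.1 to 19.3 with a library left out. At 19 bases it was -17.0 with shifted bins, -22.3 with scaling outside the top 1%, -24.8 with covered bases as the value, -13.9 with all paired alignments and -23.0 to -19.1 with a library left out. The sign never changed for either length under the alternatives run.

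The ratio of covered bases, mm over Mm, was 0.383 with a ratio limit of 3, 0.542 with levels of 5 to 200, 0.322 and 0.332 with the scalings outside the top 1% and by median ratio, 0.328 with covered bases as the value and 0.381 to 0.670 with a library left out. It was 1.89 per 1000000 covered bases, the only reversal, since mm libraries cover fewer bases in all. That scaling and the paired alignments were chosen after seeing the data.

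The share of steady bins in genes was 24.2% with a ratio limit of 1.5, 49.6% with 2 kb added to genes and 32.1% to 37.4% with a library left out. The share with the ago104 library within a factor of 2 was 78.8% with a ratio limit of 1.5, 95.7% and 96.0% with the 2 other scalings, 61.4% with covered bases as the value, 61.6% within a factor of 1.5 and 81.6% to 89.1% with a library left out. The causes of these shifts were not tested. No paired analysis was possible because the results come from no test. Low alignment counts per bin, above all in mm, limit single bins, and the ago104 library has no replicate.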
